A study of Mus musculus with 6 samples.

Results

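The transcripts of 10 antibody genes were measured in mouse haematopoietic stem cells (HSCs), sorted from bone marrow and able to renew all blood lineages. The genes are Ighm, Ighd, Ighg1, Ighg2b, Ighg2c, Ighg3 and Igha, which encode constant regions of the antibody heavy chain, Igkc and Iglc1, which encode constant regions of the kappa and lambda light chains, and Jchain, which encodes the joining chain. They were taken by name, through their Ensembl identifiers, and are 10 of the 49585 genes in the count tables, of which 26504 had at least 1 read. They were chosen by their read counts in the CD38 pos and CD38 neg libraries described below, so every difference between the populations in these 10 genes is given as a description. Where a fit over all genes also gives calls for them, the calls are counted beside those of all genes and support nothing. There were 6 libraries, 3 of a population labelled CD38 pos and 3 of a population labelled CD38 neg, which the sorting protocol calls CD38 high and low. CD38 is a surface enzyme that consumes NAD, and the title of the series links its activity to stem cell dormancy. All animals were untreated C57BL/6 mice of 8 to 16 weeks. Each library was made from pooled cells of 10 mice, so variation between single animals cannot be seen. The sorted cells lacked lineage markers, CD48 and CD34 at the surface and carried Kit, Sca-1, CD150 and CD201, and both populations share this gate. The series names 3 pairs of libraries, each with a CD38 pos and a CD38 neg library, numbered here as replicates 1, 2 and 3, without saying whether a pair came from the same mice.

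An antibody joins heavy chains to light chains, and each chain has a variable region that binds antigen and a constant region. The heavy chain constant region sets the isotype: mu gives IgM, delta IgD, the gamma genes IgG and alpha IgA. Developing B cells use mu first, and class switching later replaces it by a gene further along the locus. Plasma cells, the antibody-secreting cells of which many live in bone marrow, carry these transcripts at very high levels, and Ighm is also transcribed before the locus is rearranged. The joining chain links IgM or IgA units into polymers and is not part of IgG.

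On GRCm38, the build named in the submitters' processing notes, the heavy chain genes lie on the minus strand of chromosome 12. In the direction of transcription their order is Ighm (113418558 to 113422730), Ighd (113406604 to 113416324), Ighg3 (113356224 to 113361232), Ighg1 (113325240 to 113330523), Ighg2b (113302965 to 113307933), Ighg2c (113285325 to 113288932) and Igha (113254830 to 113260236). Igkc lies on the plus strand of chromosome 6 (70726435 to 70726966), Iglc1 on the minus strand of chromosome 16 (19061618 to 19062071) and Jchain on the minus strand of chromosome 5 (88519809 to 88527891). Annotation is that of GENCODE M21, which types Jchain as protein coding and the other 9 as immunoglobulin constant genes. No exon of the 10 genes overlaps an exon of another annotated gene.

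The ends of the coding sequences show which isotypes can be joined into polymers. IgM and IgA chains in their secreted form end in a tailpiece whose last codon but one encodes the cysteine that bonds with the joining chain, and the gamma chains have no such tailpiece. Light chains bond with the heavy chain through a cysteine at their end, which is the last codon of Igkc and the last but one of Iglc1. Each line gives the last 15 codons and the stop codon, 5′ to 3′, with the cysteine codon in capitals.
Ighm, chr12:113420867-113420914, minus strand: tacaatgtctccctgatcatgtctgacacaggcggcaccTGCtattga
Igha, chr12:113258768-113258815, minus strand: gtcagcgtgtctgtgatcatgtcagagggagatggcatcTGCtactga
Ighg3, chr12:113359665-113359712, minus strand: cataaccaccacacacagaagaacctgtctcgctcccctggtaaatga
Ighg2b, chr12:113306389-113306436, minus strand: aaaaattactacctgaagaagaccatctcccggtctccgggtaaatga
Igkc, chr6:70726710-70726757, plus strand: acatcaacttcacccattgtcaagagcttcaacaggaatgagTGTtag
Iglc1, chr16:19061752-19061799, minus strand: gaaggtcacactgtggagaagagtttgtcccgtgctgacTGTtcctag
In Ighm and Igha the cysteine is the last codon but one before the stop, and the ends of Ighg3 and Ighg2b hold none.

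The gamma genes are close copies, which bears on how well their reads can be assigned. The first 60 bases of the first constant exon (CH1) are shown, with capitals at the letters that differ from Ighg2b at the same place.
Ighg2b, chr12:113307874-113307933, minus strand: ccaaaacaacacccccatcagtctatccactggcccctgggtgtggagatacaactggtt
Ighg2c, chr12:113288873-113288932, minus strand: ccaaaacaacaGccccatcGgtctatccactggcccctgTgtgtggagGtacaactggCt
Ighg1, chr12:113330464-113330523, minus strand: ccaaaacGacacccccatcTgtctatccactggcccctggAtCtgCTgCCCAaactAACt
Ighg3, chr12:113361173-113361232, minus strand: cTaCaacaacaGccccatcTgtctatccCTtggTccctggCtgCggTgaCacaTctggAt
Over the 291 bases of CH1, Ighg2c matched Ighg2b at 87.6% of bases, Ighg1 at 88.3% and Ighg3 at 78.7%. Of all stretches of 50 bases in the annotated transcripts, 5.49% of those of Ighg2c, 4.15% of Ighg2b, 1.58% of Ighg3 and 0.393% of Ighg1 also occur in a transcript of another gene. The share was 0 for Ighm, Ighd, Igha, Igkc and Iglc1, and 0.288% for Jchain. The read length is not given in the sources used here, so small counts of the gamma genes are uncertain.

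Total counts were 16771180 to 18558610 per library, and levels are given in CPM (read counts scaled by the library's TMM-adjusted total). On this scale 3 reads correspond to 0.166 to 0.183 CPM. All 10 markers of HSCs on the list used, among them Procr, Slamf1, Hlf and Mecom, had reads in every library. Their summed level was 741 to 1554 CPM in CD38 pos and 976 to 2164 CPM in CD38 neg libraries. Reads of genes of cells outside the gate were present as well: Cd48 had 970 to 2394 and Cd34 had 3652 to 5138 reads per library. The 8 neutrophil genes summed to 69735 to 158667 CPM in CD38 pos and 79265 to 127327 CPM in CD38 neg libraries, and S100a8 had 438553 to 1002323 reads per library. No library was set aside.

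The 10 genes together had fewer reads in the CD38 pos library of every pair. They had 14917, 3840 and 8589 reads in CD38 pos replicates 1, 2 and 3, and 31103, 18892 and 56209 reads in the CD38 neg libraries of the same pairs. As a share of the library this was 0.0804%, 0.0223% and 0.0501% against 0.182%, 0.113% and 0.331%. The 95% Wilson interval of each share was narrow (0.0216% to 0.0230% for the lowest), and it covers counting error only. The highest CD38 pos library, replicate 1, lay below the lowest CD38 neg library, replicate 2. Normalised sums were 528 ± 342 CPM (SD, n = 3) in CD38 pos and 2113 ± 1214 CPM (SD, n = 3) in CD38 neg libraries, and without replicate 1 the CD38 pos mean was 346 CPM. In bulk RNA fewer cells of a type and less RNA per cell cannot be told apart.

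**Figure D1:**
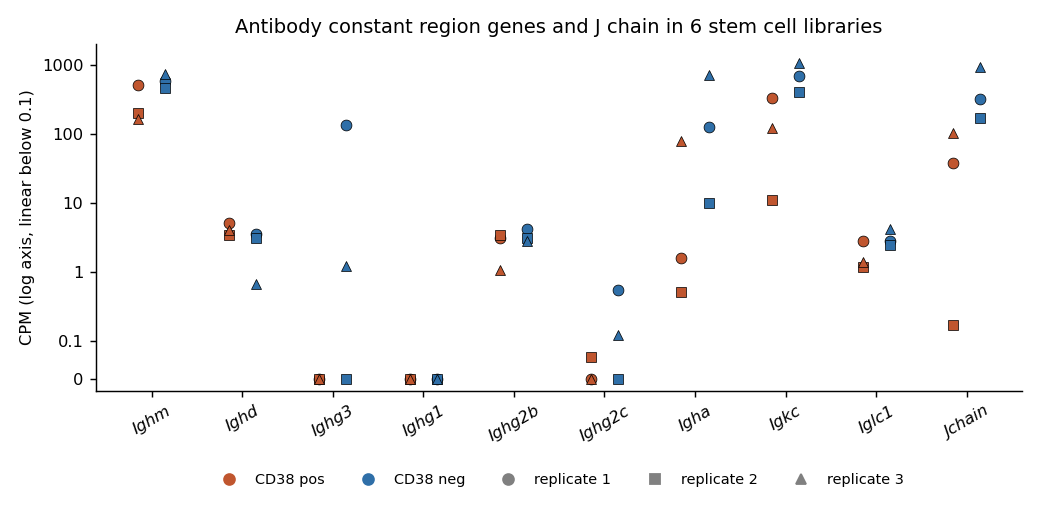
Level of each of the 10 genes in CPM in every library (vertical axis, logarithmic above 0.1 CPM), with CD38 pos libraries in orange, CD38 neg libraries in blue and symbols for the replicates. Igkc and Jchain are below every CD38 neg library in all CD38 pos libraries, Ighg3 is high in CD38 neg replicate 1, and Ighg1 is at 0 throughout.

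Ighm, the gene of the mu chain, was abundant in every library. It had 8515, 3492 and 2970 reads in CD38 pos replicates 1, 2 and 3 and 9748, 8331 and 11862 reads in the CD38 neg libraries of the same pairs. CD38 pos replicate 1 reached 510 CPM, above CD38 neg replicate 2 at 463 CPM, so the groups overlapped. Means were 291 ± 191 CPM (SD, n = 3) and 590 ± 131 CPM (SD, n = 3), and the differences within pairs 1, 2 and 3, CD38 pos minus CD38 neg on the log2 scale, were -0.19, -1.23 and -2.15. The level was lower in the CD38 pos library of each pair, but in pair 1 by little.

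Ighd, the gene of the delta chain that mature B cells carry beside mu, was the member with a higher value in the CD38 pos library of every pair. It had 84, 60 and 73 reads in CD38 pos and 60, 55 and 11 reads in CD38 neg replicates 1, 2 and 3. Differences within pairs were 0.48, 0.15 and 2.39 on the log2 scale, so most of the difference was in pair 3, where the CD38 neg library had the fewest reads. The groups overlapped, at 4.15 ± 0.83 CPM (SD, n = 3) and 2.43 ± 1.55 CPM (SD, n = 3).

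The gamma genes had few reads, apart from Ighg3 in CD38 neg replicate 1. Ighg3 had 2236 reads there, 20 in CD38 neg replicate 3 and 0 in the other 4 libraries. Against a floor of 3 reads per library, it was at least 740-fold higher in the CD38 neg library of pair 1 and at least 7.39-fold higher in that of pair 3. A value of this size in 1 of 3 libraries is a property of that library, and the CD38 neg mean of 44.8 ± 76.5 CPM (SD, n = 3) rests on it. Ighg2b was low and even, with 52, 61 and 19 reads in CD38 pos and 69, 56 and 46 reads in CD38 neg replicates 1, 2 and 3. Its groups overlapped, and pair 2 had the opposite direction to the others. Ighg2c, which C57BL/6 mice carry in place of Ighg2a, had 9 reads in CD38 neg replicate 1, 2 in CD38 neg replicate 3, 1 in CD38 pos replicate 2 and 0 elsewhere. Ighg1 had 0 reads in all 6 libraries, which allows up to 3 reads in each.

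Igha, the gene of the alpha chain of IgA, had the widest range among the heavy chain genes that every library held. It had 26, 9 and 1446 reads in CD38 pos replicates 1, 2 and 3 and 2075, 178 and 11579 reads in the CD38 neg libraries of the same pairs. Within each pair the CD38 neg library was higher, by 79.3-fold, 19.4-fold and 8.87-fold in pairs 1, 2 and 3. Between pairs the order was different: CD38 pos replicate 3, at 79.8 CPM, lay above CD38 neg replicate 2, at 9.9 CPM, so the groups overlapped. Means were 27.3 ± 45.5 CPM (SD, n = 3) in CD38 pos and 280 ± 375 CPM (SD, n = 3) in CD38 neg libraries, with SDs larger than the means.

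The isotype make-up of each library was taken as the share of all reads on the 7 heavy chain genes. Mu made up 98.1% of them in CD38 pos replicate 1 and 96.4% in CD38 pos replicate 2, with alpha at 0.300% and 0.248%. CD38 neg replicate 2 was close to these, with 96.6% mu and 2.06% alpha (95% Wilson interval 1.79% to 2.39%). The other 3 libraries held many reads of the gamma or alpha genes, which are called class-switched here. Whether such reads came from loci that had switched was not tested. CD38 pos replicate 3 had 65.9% mu and 32.1% alpha. CD38 neg replicate 3 had 50.4% mu and 49.2% alpha, so pair 3 was rich in alpha in both populations. CD38 neg replicate 1 was mixed, with 68.7% mu, 14.6% alpha and 15.7% gamma 3 (95% Wilson interval 15.2% to 16.4%).

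Averaged over libraries, alpha took 10.9% ± 18.4 (SD, n = 3) of heavy chain reads in CD38 pos and 22.0% ± 24.4 (SD, n = 3) in CD38 neg libraries. Without replicate 3 these means were 0.274% and 8.34%, so the CD38 pos mean rests on pair 3. The CD38 neg mean rests on pair 3 and, to a smaller degree, on CD38 neg replicate 1, where alpha took 14.6%. The alpha share was lower in the CD38 pos library of each pair, although the groups overlapped. Mu took 86.8% ± 18.1 (SD, n = 3) and 71.9% ± 23.3 (SD, n = 3), and delta took 1.41% ± 0.39 (SD, n = 3) and 0.369% ± 0.299 (SD, n = 3). For the sum of the 4 gamma genes the shares were 0.911% ± 0.699 (SD, n = 3) and 5.75% ± 9.14 (SD, n = 3), the latter being mostly CD38 neg replicate 1. Among class-switched reads alone, alpha made up 98.7% of 1465 reads in CD38 pos replicate 3 and 99.4% of 11647 reads in CD38 neg replicate 3. In CD38 neg replicate 1 alpha and gamma 3 took 47.3% and 50.9% of 4389 such reads. The remaining libraries had 78, 71 and 234 class-switched reads, in CD38 pos replicates 1 and 2 and CD38 neg replicate 2, and in both of the former Ighg2b was the largest part, at 66.7% and 85.9%.

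**Figure D2:**
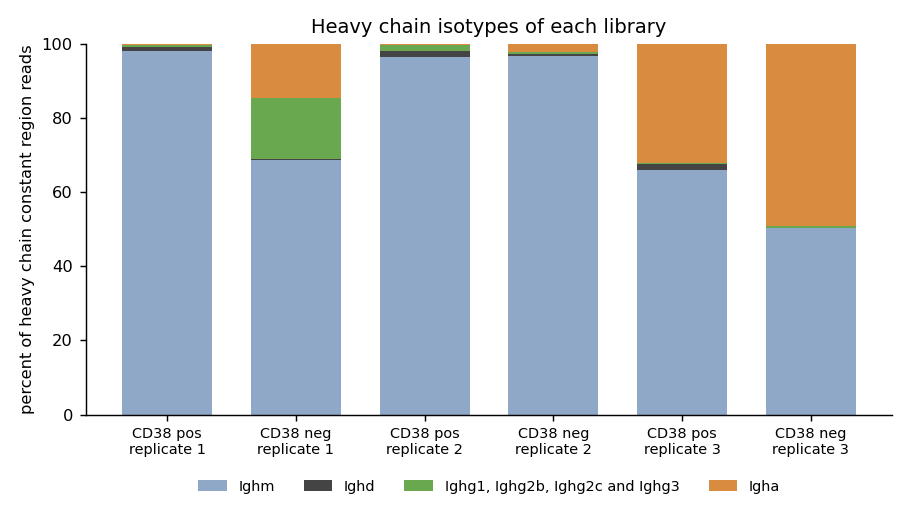
Share of heavy chain constant region reads from each isotype (vertical axis, percent) in the 6 libraries, with the 2 libraries of a pair side by side. Alpha is large in both libraries of pair 3, at 32.1% and 49.2%, and the gamma genes are visible as a block in CD38 neg replicate 1.

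Which isotype led in CD38 neg replicate 3 depended on the length by which reads were divided. Per kilobase of all annotated exons, mu had 59.0% and alpha 40.7%. Per kilobase of the secreted transcript, a measure added after the data were seen, mu had 42.8% and alpha 56.8%. The annotated exons of Igha cover 2668 bases and its secreted transcript 1100 bases, against 1886 and 1493 bases for Ighm. In the other 5 libraries mu was the largest part by each measure.

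Kappa was the main light chain in all libraries. Igkc had 5572, 193 and 2220 reads in CD38 pos replicates 1, 2 and 3, and 11491, 7175 and 17275 reads in the CD38 neg libraries of the same pairs. CD38 pos replicate 2 stood far below the rest, and no CD38 pos library reached a CD38 neg library: means were 156 ± 164 CPM (SD, n = 3) and 713 ± 330 CPM (SD, n = 3). The CD38 neg library was higher by 2.05-fold, 36.5-fold and 8.62-fold in pairs 1, 2 and 3. Iglc1, the lambda 1 constant gene, was low, with 47, 21 and 25 reads in CD38 pos and 47, 44 and 68 reads in CD38 neg libraries. Its groups overlapped, and pair 1 had the same number of reads on both sides.

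Of the reads on Igkc and Iglc1, kappa made up 99.2%, 90.2% and 98.9% in CD38 pos and 99.6%, 99.4% and 99.6% in CD38 neg replicates 1, 2 and 3. The low share in CD38 pos replicate 2 (95% Wilson interval 85.5% to 93.5%) goes with its small number of Igkc reads. Its Iglc1 level was also the lowest, at 1.19 CPM, but close to the 1.38 CPM of CD38 pos replicate 3, whereas its Igkc level was 10.9 CPM against 122 CPM there. Counting the other lambda constant genes, Iglc2, Iglc3 and Iglc4, lowered the kappa share to 80.1% in that library and to between 96.9% and 98.7% in the others. Iglc3 had 385 reads in CD38 neg replicate 3 against 11 to 63 elsewhere. Exons of Iglc2 and Iglc3 overlap exons of Iglj2 and 2010309G21Rik, so some of their reads may have been dropped or split.

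Jchain, which encodes the joining chain, had 621, 3 and 1836 reads in CD38 pos replicates 1, 2 and 3 and 5368, 3053 and 15346 reads in the CD38 neg libraries of the same pairs. All CD38 pos libraries lay below all CD38 neg libraries. The means were 46.2 ± 51.2 CPM (SD, n = 3) in the former and 476 ± 407 CPM (SD, n = 3) in the latter. In pairs 1 and 3 the CD38 neg library was higher by 8.59-fold and 9.26-fold. In pair 2 the ratio rests on 3 reads, and its 95% exact binomial interval runs from 342 to 4852. Those 3 reads put Jchain in CD38 pos replicate 2 at the level of the floor, in a library that had 3492 reads of Ighm.

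Light chain and joining chain were set against the heavy chain per kilobase of transcript, to compare genes of different length. Per 100 heavy chain reads per kilobase, Igkc had 178, 14.6 and 122 in CD38 pos replicates 1, 2 and 3 and 203, 230 and 175 in the CD38 neg libraries of the same pairs. Heavy chain message in CD38 pos replicate 2 was therefore accompanied by far less kappa than in any other library. Jchain had 7.58, 0.0869 and 38.6 per 100 in CD38 pos and 36.3, 37.4 and 59.4 in CD38 neg libraries. CD38 pos replicate 3 lay within the CD38 neg range by this ratio, and both libraries of pair 3 had the highest value of their population, as they had for alpha. CD38 neg replicate 2 had 37.4 although only 2.06% of its heavy chain reads were alpha.

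**Figure D3:**
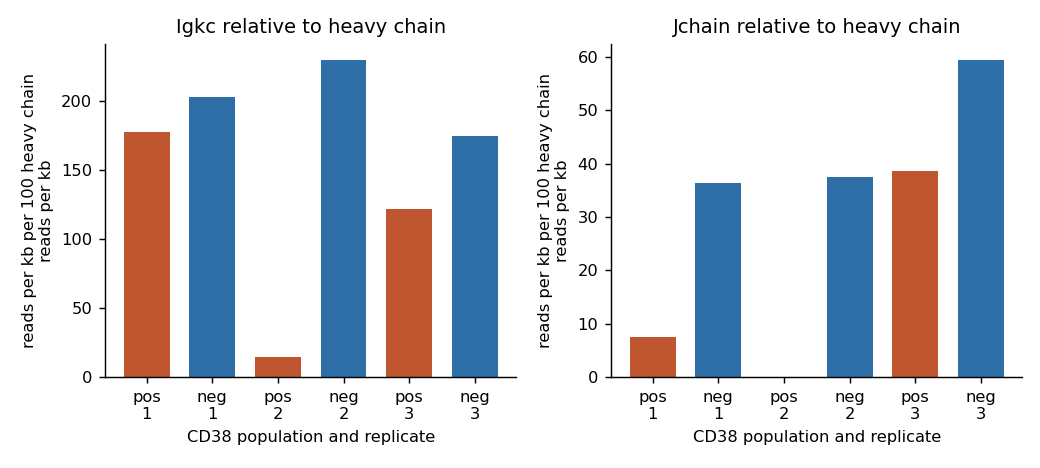
Reads per kilobase of Igkc (left) and Jchain (right) per 100 reads per kilobase of all 7 heavy chain genes (vertical axes, from 0), for CD38 pos (orange) and CD38 neg (blue) libraries of each replicate. CD38 pos replicate 2 is lowest in both, at 14.6 and 0.0869.

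The order of the genes by level per kilobase of transcript also differed between libraries. In CD38 neg replicate 3 Igkc led with 1985 CPM per kilobase, followed by Jchain with 674, Igha with 644 and Ighm with 486. In CD38 pos replicate 2 Ighm led with 132 CPM per kilobase, ahead of Igkc with 20.5 and Ighd with 4.23, and Igha and Jchain were at 0.463 and 0.122. These are single values without replicates of their own.

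Fitted over all genes with edgeR's quasi-likelihood test and the pair as a term, 7 of the 10 members passed the filter on low counts: Igha, Ighm, Ighd, Ighg2b, Igkc, Iglc1 and Jchain. Ighg1, with 0 reads, Ighg2c, with 12 reads in all, and Ighg3, with reads in 2 libraries, did not. Fitted log2 fold changes, CD38 pos relative to CD38 neg, were -4.40 (SE 0.46) for Igha, -4.26 (SE 0.71) for Jchain, -3.07 (SE 0.56) for Igkc and -1.19 (SE 0.30) for Ighm. They were -0.86 (SE 0.43) for Iglc1, -0.51 (SE 0.41) for Ighg2b and 0.95 (SE 0.46) for Ighd. The median of the 7 was -1.19, and that of all 14785 tested genes was 0.00. Each SE was derived from the test's F statistic, with variance estimates that draw on all genes. DESeq2 gave SEs of 0.83 for Igha, 1.58 for Jchain, 1.04 for Igkc and 0.29 for Ighm. Within pairs 1, 2 and 3 Jchain differed by -3.10, -9.22 and -3.21, a spread that its SE of 0.71 does not show. Past a Benjamini-Hochberg adjusted p-value of 0.05 on the lower side was 1 of the 7, Igha, where 0.00676% of all tested genes were called lower and 0.00676% higher. The share on the lower side is Igha itself, 1 of 14785 genes. At an unadjusted p-value under 0.05, 4 of the 7 were lower and 0 higher, against 2.61% and 2.47% of all tested genes. Without the pair term, or with library totals left unscaled, Igha did not pass. The groups did not overlap for 2 of the 7, Igkc and Jchain, with 3.19% of all tested genes lying wholly below, and for 0 of the 7 did CD38 pos lie wholly above, with 3.33% of all tested genes. In all 3 pairs 4 of the 7 were lower in CD38 pos, as were 11.3% of all tested genes, and 1, Ighd, was higher, as were 13.2%. Since this contrast chose the members, nothing is read from these counts.

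**Figure D4:**
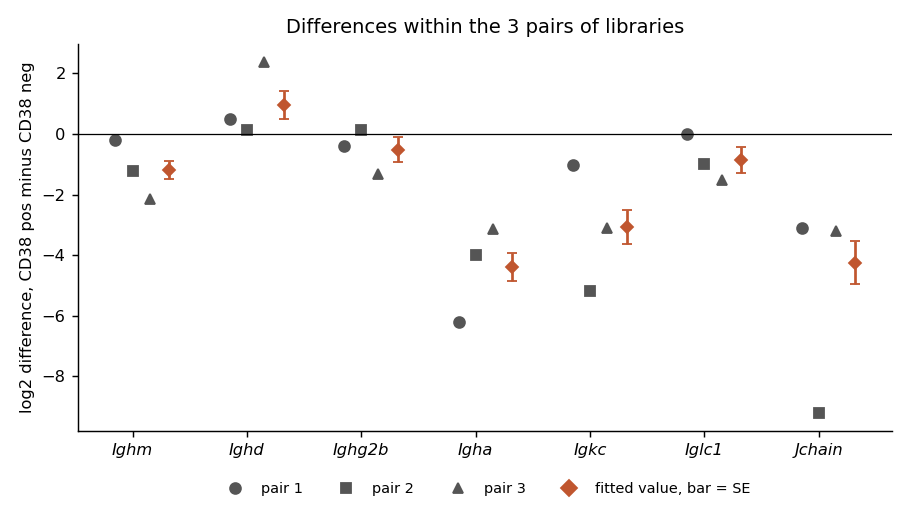
Difference between the CD38 pos and CD38 neg library of each pair (grey symbols, log2 scale on the vertical axis) and the value fitted over the 3 pairs with its SE (orange), for the 7 members that passed the filter. The SE was derived from the F statistic, with variance estimates that draw on all genes, and is not the spread of the pairs. Igha, Igkc and Jchain are below 0 in each pair but by amounts that differ between pairs, with Jchain at -9.22 in pair 2, and Ighd is above 0 in each pair.

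Across the 6 libraries the log2 levels of Igkc and Jchain had a Pearson r of 0.95, Ighm and Iglc1 0.97, Igha and Jchain 0.85, and Igha and Ighm 0.40. Igha and Ighd had -0.65. These describe 6 libraries that share pairs and the split by CD38. The tested genes outside the antibody loci whose level was most like the mean of Igha, Igkc and Jchain included Mcf2 (r = 0.99, 6 to 58 reads per library), Tbca (0.99), Gm37376 (0.98), Plxna4 (0.98), Mterf1a (0.98), Gm42636 (0.98) and Gm13166 (0.97). None of these is a marker on the lists used here, and the highest values among 14785 genes over 6 libraries are high by selection.

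Heavy chain V genes, the segments that encode most of the variable region, were counted as a further measure of the antibody message. The 185 genes of this class had 1459, 239 and 282 reads in CD38 pos replicates 1, 2 and 3 and 2968, 1676 and 7501 reads in the CD38 neg libraries of the same pairs. Between 24 and 39 of them had at least 3 reads in a library. In 3 libraries most of the reads fell on 1 gene: Ighv6-3 had 80.9% in CD38 neg replicate 3 (95% Wilson interval 80.0% to 81.8%), Ighv5-6 had 81.7% in CD38 neg replicate 2 (79.8% to 83.5%) and Ighv7-1 had 63.3% in CD38 pos replicate 1 (60.8% to 65.7%). In CD38 neg replicate 1 the leading gene was Ighv11-2, known from antibodies of B-1 cells, with 28.1%, and Ighv1-5 followed with 22.9%. The other CD38 pos libraries were more even, with Ighv1-71 at 22.0% in replicate 3 and Ighv1-74 at 7.53% in replicate 2.

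The leading V genes were almost absent from the libraries they did not lead, apart from Ighv1-74. Ighv6-3 had 6071 reads in CD38 neg replicate 3 and 1 to 7 in each other library. Ighv5-6 had 1369 reads in CD38 neg replicate 2 and 0 to 6 elsewhere, and Ighv7-1 had 923 reads in CD38 pos replicate 1 and 0 to 8 elsewhere. Ighv11-2 had 833 reads in CD38 neg replicate 1 and 0 or 1 elsewhere, and Ighv1-71 had 62 reads in CD38 pos replicate 3 and 0 or 1 elsewhere. Ighv1-74 had 18 to 47 reads in all 6 libraries. Both libraries of a pair had different leading genes in all 3 pairs. The next gene was shared within pairs 1 and 2 but not within pair 3. In pair 1 it was Ighv1-5, with 150 reads in CD38 pos and 679 in CD38 neg. In pair 2 it was Ighv1-41, with 16 and 39 reads, and Ighv1-41 was also next in CD38 pos replicate 3, with 49. V genes are a large family of similar sequences whose reads can be misassigned, so these shares describe the counts as deposited.

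**Figure D5:**
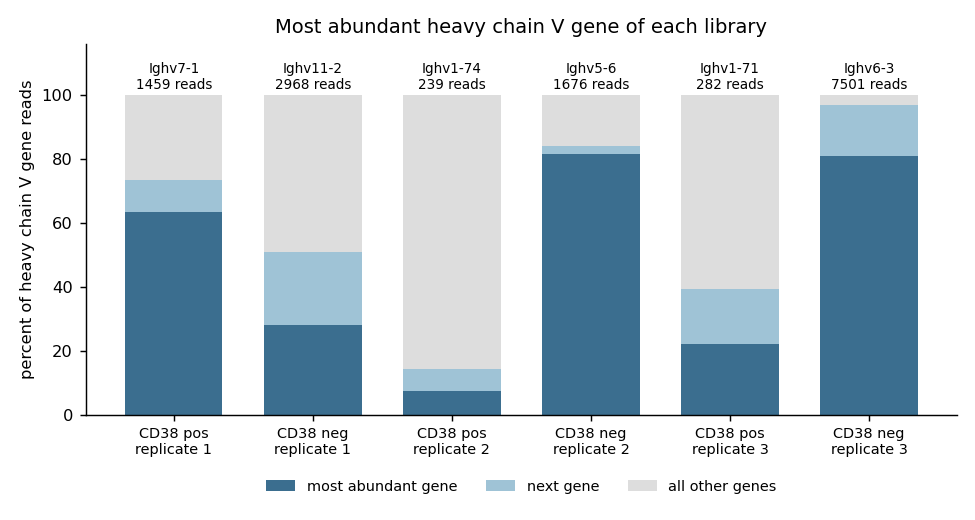
Share of heavy chain V gene reads from the most abundant gene, the next and all others (vertical axis, percent) in each library, with the name of the leading gene and the total number of V gene reads above each bar. A different gene leads in each of the 6 libraries, with 63.3% to 81.7% of the reads in 3 of them.

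Genes of antibody-secreting cells and of B cells were examined beside the antibody genes. None of the 14 lists, with 115 tested genes in all, had a gene past an adjusted p-value of 0.05 in edgeR's quasi-likelihood test, with 9 at an unadjusted p-value under 0.05. Of these 9, Iglc2 (-1.21) and Iglc3 (-2.14), constant genes of other lambda chains, were lower in CD38 pos. DESeq2 and limma-voom called 0 as well, with 7 and 8 at an unadjusted p-value under 0.05. Of all tested genes 0.0135% were called and 5.08% had an unadjusted p-value under 0.05.

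Of the 10 plasma cell regulators and receptors 8 were tested, with a median of -0.16 on the log2 scale and 0 genes at an unadjusted p-value under 0.05. They summed to 520 to 754 CPM in CD38 pos and 506 to 765 CPM in CD38 neg libraries, and none was at 0 in any library. Xbp1, the transcription factor that expands the secretory apparatus, made up most of the sum, at 550 ± 139 CPM (SD, n = 3) and 484 ± 105 CPM (SD, n = 3). Sdc1, the plasma cell surface marker CD138, was at 5.25 ± 1.88 CPM (SD, n = 3) and 6.85 ± 1.13 CPM (SD, n = 3). Tnfrsf13b, a receptor for B cell survival factors, was at 81.6 ± 11.1 CPM (SD, n = 3) and 104 ± 28.1 CPM (SD, n = 3), and Ell2, an elongation factor that favours secreted heavy chain message, at 7.48 ± 2.54 CPM (SD, n = 3) and 9.61 ± 3.48 CPM (SD, n = 3). Prdm1 and Tnfrsf17, which define plasma cells most closely, had 2 to 19 and 1 to 5 reads per library and were not tested.

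The 24 genes of antibody folding and secretion had a median of 0.10 on that scale and summed to 6037 to 6680 CPM in CD38 pos and 5353 to 6605 CPM in CD38 neg libraries. Txndc11, a thioredoxin-domain protein of the endoplasmic reticulum, had 0.57 and was the 1 gene with an unadjusted p-value under 0.05 (adjusted p = 0.926 in edgeR). Hsp90b1 and Creld2, a chaperone and a stress-induced protein of the same compartment, had 0.31 and 0.29. Derl3, which acts in the disposal of misfolded proteins, had 0.90 (SE 0.63) on few reads. Mzb1, a chaperone of secreted antibody, had 162 to 300 reads per library and a log2 fold change of -0.12. Many of these genes are active in all cells, so they mark secretory cells poorly.

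The 15 mature B cell genes summed to 114 to 222 CPM in CD38 pos and 148 to 206 CPM in CD38 neg libraries, with a median log2 fold change of 0.10. Ly6d, a marker of B lineage commitment, had -0.81 (SE 0.35, adjusted p = 0.926 in edgeR). Cd22, an inhibitory receptor, and Spib, a transcription factor, had 0.65 and 0.43. The 9 B cell precursor genes had a median of -0.02 and summed to 109 to 275 CPM and 136 to 208 CPM, and the 6 plasmacytoid dendritic cell genes had a median of -0.01 and summed to 52.3 to 76.0 CPM and 65.9 to 91.0 CPM. All 15 mature B cell genes and all 9 precursor genes had reads in every library. The part of any of these cells in the antibody reads was not tested.

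Of the 10 HSC markers 4, Hlf, Meis1, Kit and Ly6a, had an unadjusted p-value under 0.05 in edgeR, all with lower fitted values in CD38 pos. Of all tested genes 2.61% were lower at that threshold. None of the 10 passed adjustment. The list's median was -0.40, and Slamf1 and Fgd5 had higher fitted values, 0.45 and 0.09. Kit had 2217, 1939 and 4109 reads in CD38 pos and 3533, 10003 and 3129 in CD38 neg replicates 1, 2 and 3. Its difference was thus largest in pair 2, and pair 3 had the opposite direction. Hlf, Meis1 and Ly6a also differed most in pair 2, with 755, 2494 and 1085 reads in CD38 pos against 2599, 5924 and 2627 in CD38 neg. In pair 1 their reads were 619, 1750 and 1168 against 813, 2783 and 1259. In pair 3 they were 1443, 4063 and 1630 against 1555, 3682 and 1651. The medians were 0.07 for 8 neutrophil genes, 0.00 for 6 tested genes of class switching and 0.04 for Cd48, Cd34 and Flt3. The 6 erythroid genes had a median of -0.27 and summed to 2434 to 8788 CPM in CD38 pos and 3532 to 7188 CPM in CD38 neg libraries. The 7 tested T and NK cell genes had a median of 0.21 and their list summed to 149 to 346 CPM and 193 to 307 CPM. Nkg7 made up most of these sums, at 186 ± 111 CPM (SD, n = 3) and 209 ± 60.2 CPM (SD, n = 3), and Cd3e had 0 to 4 reads per library. For 5 platelet genes the median was 0.11 and the sums were 82.5 to 238 CPM and 131 to 139 CPM. Their part in the antibody reads was not tested.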

How the data were processed

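For every library the authors deposited a file of raw counts by Ensembl identifier, without a header or rows of unassigned reads. cutadapt, STAR and HTSeq 0.6.1p1 on GRCm38 (mm10) are named in the submitters' processing notes. The counting mode, strand setting, read length and annotation release are not given in the sources used here, so reads shared between overlapping or similar genes may have been dropped or split. Symbols matched 49326 of 49585 identifiers.

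Counts were filtered with filterByExpr and scaled by TMM, and CPM use the TMM-adjusted library sizes. Differences were fitted with edgeR 4.0.16 in R 4.3.3 (estimateDisp, glmQLFit, glmQLFTest; pair plus population) over all genes, with Benjamini-Hochberg adjustment and a threshold of 0.05. The SE given with an edgeR log2 fold change is its absolute value divided by the square root of the test's F statistic. DESeq2 1.42.0 and limma 3.58.1 were alternatives. Log2 differences within pairs use a prior count of 2. Shares have 95% Wilson intervals, and these and the floor of 3 counts cover counting error only. Lengths and transcript sequences are from GENCODE M21. The fitting procedure was tested on simulated data.

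The pairs come from the series' design text. After the population mean of each gene was removed, the libraries of pairs 1, 2 and 3 correlated at 0.34, 0.12 and 0.24. Replicates were not the same library deposited again: their counts gave chi-square values of 52.7 to 118 per degree of freedom. Nothing says whether they came from separate mice. With the pair term, p-values measure how the differences within these pairs vary, with variance estimates that draw on all genes. Without that term, p-values measure the spread between these samples.

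The members and gene lists were chosen with earlier results of these data known. Named genes were the 10 members, list genes past the threshold (none), up to 4 further genes per list by smallest p-value in the plasma cell, secretion, mature B cell and antibody receptor lists, the leading V gene of each library, and the 8 genes most like the mean log2 level of Igha, Igkc and Jchain. Mzb1, Prdm1, Tnfrsf17, Ighv1-5 and the HSC genes were named after their values were seen. Some genes that this rule names are not reported here.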

Additional observations from a re-analysis of the deposited data

How the results depend on the processing

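The alternatives were planned, except for the secreted transcript length, chosen after seeing the data. With the replicate block 2 genes passed the threshold, and this count was 0 without the replicate block (417 at an unadjusted p-value under 0.05 in edgeR), 0 with unscaled library totals (595), 11 in DESeq2, 7 with DESeq2 size factors, 80 with no filter and 13 with a mean of at least 10 counts; the cause was not tested. When a pair was left out it ranged from 2 to 41. The 7 tested members kept the sign of their log2 fold change under all 10 alternatives. The alternatives reuse the same counts, and this contrast chose the members, so the kept signs support nothing. Their calls are not given here, since the same contrast chose them. Igha ranged from -5.59 to -3.36, Jchain from -5.23 to -3.17, Igkc from -4.12 to -2.08 and Ighm from -1.69 to -0.71. Restricting to class-switched isotypes raised the mean alpha share to 48.2% in CD38 pos and 74.3% in CD38 neg libraries, since mu was left out. Counting all lambda genes lowered the mean kappa share to 91.4% in CD38 pos and 97.8% in CD38 neg libraries. Ratios of genes with fewer than about 20 reads are limited by depth.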

Other observations

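Receptors that bind antibodies were measured as well. Of 8 genes on the list 6 were tested, with a median log2 fold change of 0.05, and 0 passed an adjusted p-value of 0.05 in edgeR, in DESeq2 or in limma-voom (0 at an unadjusted p-value under 0.05 in each). Fcer1g, the signalling chain shared by several Fc receptors, was at 479 ± 59.4 CPM (SD, n = 3) in CD38 pos and 394 ± 73.0 CPM (SD, n = 3) in CD38 neg libraries. Fcgr1, Fcgr4 and Fcgrt, which encode receptors for IgG, had log2 fold changes of -0.27, 0.16 and -0.14. Pigr, which carries polymeric antibody across epithelia, had 1 and 2 reads in the libraries of pair 1 and 0 elsewhere, and Fcamr, a receptor for IgA and IgM, had 0 reads in all 6 libraries. Ighv1-26, named after its values were seen, was shared between pairs, with 532 reads in CD38 neg replicate 1 and 1187 in CD38 neg replicate 3 against 0 to 17 elsewhere.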
